A study of Mus musculus with 4 samples.

Results

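The nuclear-encoded subunits of oxidative phosphorylation are the proteins of the mitochondrial respiratory chain and ATP synthase that are made from genes of the cell nucleus. They were taken by gene name: protein-coding genes whose symbols begin with Nduf followed by a subunit letter and number, the 4 Sdh subunits, Uqcr, Cyc1, Cox4 to Cox8 forms with a letter, and Atp5. This gave 83 genes of 34866 in the count table, on 19 chromosomes: 37 of complex I, 4 of complex II, 9 of complex III, 16 of complex IV and 17 of complex V. After a filter on low counts 80 of the 83 were among 14050 tested genes. Cox8b, Cox8c and Ndufa4l2 did not pass it. The name rule leaves out Cox4i1, Cox4i2, Ndufab1, Atpif1 and Cycs, which are described separately, and places Ndufa4 with complex I by its name although biochemical work assigns the protein to complex IV.

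The RNA came from mouse neural stem and progenitor cells. They were taken from the dorsal telencephalon, the origin of the cerebral cortex, at E11.5 and grown for 5 days as neurospheres with basic fibroblast growth factor. The 2 shControl libraries came from cells given 1 lentiviral vector with a control hairpin, CS-EG-shControl, at a multiplicity of infection of 30. The 2 triple knockdown libraries came from cells given 3 vectors at 10 each: pLV-EG-shZfp57 against Zfp57, pLV-EG-shZfp7 against Zfp7 and pCS-EG-shPhf21b against Phf21b, so the number of vectors and part of the backbones differ with the group and cannot be told apart from the hairpins. The sources used here give no strain, sex or share of transduced cells.

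The electron transport chain passes electrons from NADH (complex I) and succinate (complex II) through complex III to oxygen at complex IV, and complexes I, III and IV pump protons out of the mitochondrial matrix. Complex V lets the protons return and makes ATP. A few subunits are encoded by mitochondrial DNA and all others by nuclear genes, so each complex other than complex II is assembled from proteins of both genomes. Neural stem cells of the embryonic cortex are known to draw much of their ATP from glycolysis, with greater use of oxidative phosphorylation as neurons form.

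Depth and group checks for the whole table are brief. Estimated counts totalled 14694387 to 20779211 per library. Levels of the targeted genes in the triple knockdown, as fitted by edgeR, were 81.6% of control for Phf21b, 77.6% for Zfp7 and 75.6% for Zfp57, and none passed the threshold of edgeR's quasi-likelihood test, with adjusted p from 0.34 to 0.80. In CPM (counts relative to the library total, scaled for library composition), shControl replicates 1 and 2 and triple knockdown replicates 1 and 2 held 7.25, 7.36, 5.49 and 6.45 for Phf21b, 1.68, 2.27, 1.96 and 0.98 for Zfp7, and 14.6, 11.8, 10.7 and 9.32 for Zfp57. The groups overlapped for Zfp7. Phf21b and Zfp57 were lower in the knockdown without overlap, where 21.7% of all tested genes were so. Of 7 progenitor markers Fabp7 was far the most abundant, at 24998 ± 3617 CPM in control and 21434 ± 1885 CPM in knockdown (SD, n = 2 each). The 7 had mean levels from 5.17 to 23216 CPM with a median of 36.7 CPM. None passed the threshold in edgeR, 4 lay below control and 3 above, and their median log2 fold change was -0.20. Macrophage, red blood cell, endothelial and muscle markers summed to at most 42.2 CPM per list in any library and mesenchymal markers to at most 47.8. Red blood cell markers summed to 27.3 and 29.4 CPM in control and 42.2 and 40.0 CPM in knockdown; of 6 tested, 5 lay above control, and Hbb-y, an embryonic globin, rose, with an adjusted p of 0.040 in edgeR. The part of these markers in the results on the subunits was not tested.

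Promoters of the subunits were searched because many nuclear genes of the respiratory chain are known targets of NRF1, of the ETS factor GABP and of YY1. RefSeq (GRCm38.p6) gave a window from 250 bases before to 50 bases after the transcription start for 68 of the 83 genes. The NRF1 core GCGCATGCG, on either strand, occurred in 8 of these 68 genes (11.8%) and in 1.95% of all 27025 genes of the same table. The ETS core CCGGAAGT occurred in 5 (7.35%, against 4.31% of all genes) and the YY1 core AAGATGGC in 10 (14.7%, against 3.19%). At least 1 of the 3 motifs was found in 22 of 68 subunit genes and in 8.94% of all genes. The motifs do not contain one another, and because the NRF1 core is nearly its own reverse complement, a single stretch can match on both strands.

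Cox6b2 was the only member called lower, at an adjusted p of 0.046 in edgeR, and DESeq2 gave 0.22. The sequences that follow are 1 example of each motif and the promoters of Cox6b2 and of its paralog Cox6b1. Each runs 5′ to 3′ on the gene's strand in GRCm38.p6, with motif letters in capitals. Those of Atp5g2 (chr15:102671018-102671297, minus strand), Cox8a (chr19:7217587-7217866, minus strand), Cox6b2 (chr7:4753065-4753344, minus strand) and Cox6b1 (chr7:30626085-30626364, minus strand) hold 250 bases before the start and 30 after it. For Ndufs7 (chr10:80249459-80249488, plus strand) only the 30 bases around the match are given.
Atp5g2 (NRF1 core, capitals): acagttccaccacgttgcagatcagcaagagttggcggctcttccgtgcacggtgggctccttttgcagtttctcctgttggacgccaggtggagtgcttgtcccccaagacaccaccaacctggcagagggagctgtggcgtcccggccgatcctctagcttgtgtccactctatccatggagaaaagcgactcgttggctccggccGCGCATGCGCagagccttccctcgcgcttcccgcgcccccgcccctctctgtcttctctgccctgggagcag
Cox8a (ETS core, capitals): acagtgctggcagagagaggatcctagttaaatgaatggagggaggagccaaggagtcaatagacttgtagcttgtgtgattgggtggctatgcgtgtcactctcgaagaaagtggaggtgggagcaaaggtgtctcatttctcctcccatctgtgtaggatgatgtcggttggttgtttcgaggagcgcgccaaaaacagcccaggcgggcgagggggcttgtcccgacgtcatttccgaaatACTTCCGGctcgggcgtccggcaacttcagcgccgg
Ndufs7 (YY1 core, capitals): tgaaggccgaggccAAGATGGCggcgctgg
Cox6b2 (none of the 3 motifs): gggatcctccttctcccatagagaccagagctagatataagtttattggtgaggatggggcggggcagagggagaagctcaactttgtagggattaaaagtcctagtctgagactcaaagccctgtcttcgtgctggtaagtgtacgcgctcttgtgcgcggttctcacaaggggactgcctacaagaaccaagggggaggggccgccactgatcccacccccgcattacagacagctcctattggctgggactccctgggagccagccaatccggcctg
Cox6b1 (none of the 3 motifs): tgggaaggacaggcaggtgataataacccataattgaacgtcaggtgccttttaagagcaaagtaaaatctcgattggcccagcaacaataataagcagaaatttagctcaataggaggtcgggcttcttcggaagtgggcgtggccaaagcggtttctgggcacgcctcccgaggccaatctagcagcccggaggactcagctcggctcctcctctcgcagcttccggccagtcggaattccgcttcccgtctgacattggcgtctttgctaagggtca
In Atp5g2 the NRF1 letters begin 42 bases before the start on the printed strand, and the overlapping match to the other strand begins 1 base later. In Cox8a the ETS core lies on the other strand across the start, and another match follows at position 32. Cox6b1, an abundant subunit, and Cox6b2, its far less abundant paralog, hold none of the 3 motifs in this window, which says only that these letters are not there. Median log2 fold changes of the tested genes with each motif were 0.03 for NRF1 (8 genes), 0.04 for ETS (5 genes) and 0.05 for YY1 (10 genes), and between 0.00 and 0.01 for the genes without each motif.

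Levels of the subunits spanned several orders of magnitude when counts were divided by exon length. In CPM per kilobase of exon, the mean over the 4 libraries was highest for Cox7c (2688), Cox8a (1534), Cox6b1 (1498), Cox7a2 (1384) and Ndufa4 (1383). By longest coding transcript the highest were Cox7c (4287), Ndufa4 (3131), Cox6c (2505), Atp5l of complex V (2340) and Uqcrh of complex III (2312), so only Cox7c and Ndufa4 were among the 5 highest under both lengths. The lowest levels among the conserved catalytic proteins were 4.11 for Ndufs1, the large iron-sulfur protein of complex I, 8.73 for Uqcrc1, a core protein of complex III, and 10.4 for Ndufv1, the subunit that binds NADH. Under longest coding transcript the lowest of these were Ndufs1 (12.5), Sdha of complex II (15.9) and Ndufv1 (16.5), with Uqcrc1 at 21.8. Within complex I the 7 redox core members had a median of 43.2 CPM per kilobase and the 29 supernumerary members 214. The plot of levels per length shows this spread and the small distances between libraries.

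**Figure D1:**
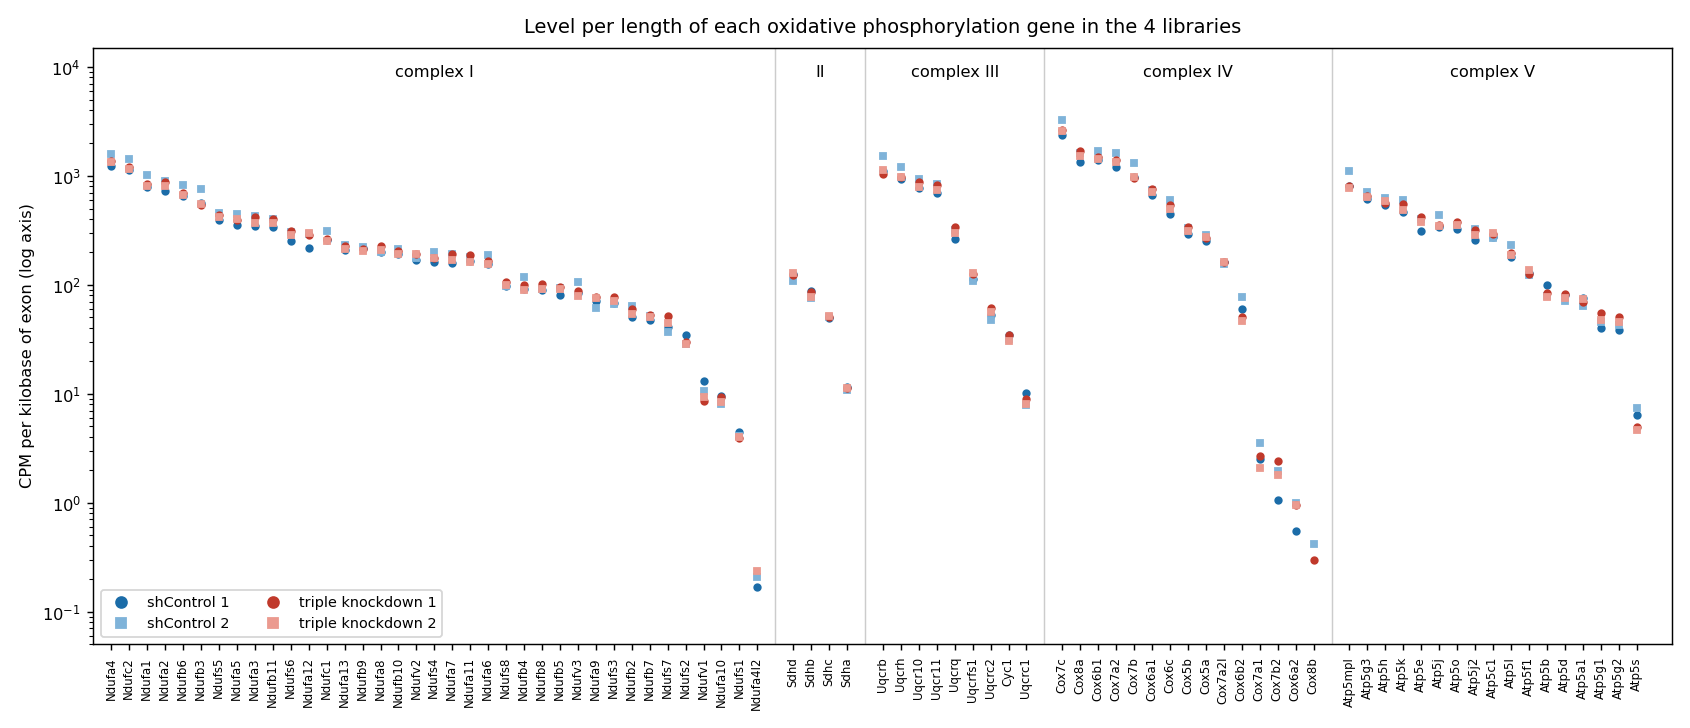
Level of each gene in CPM per kilobase of exon (log axis), by complex and ordered by mean level, with 1 point per library (blue shControl, red triple knockdown; circle replicate 1, square replicate 2). Cox8c, at 0 counts in all 4 libraries, and single values at 0 are not drawn; Cox7c is highest at a mean of 2688, and the 4 libraries lie close together for nearly all genes.

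Median levels per kilobase were 178 for complex I, 65.9 for complex II, 305 for complex III, 294 for complex IV and 284 for complex V. The order of these medians depends on the length used. Dividing by the longest coding transcript in place of all exons of a gene gave 313, 86.9, 367, 730 and 824, so complexes IV and V then stood above complex III. Complex II was lowest under both lengths. Across the 83 genes the ranks of levels under the lengths correlated at 0.93 (Spearman, genes not being independent), and 36 levels differed by more than 1.5-fold, by up to 11.8-fold. Ranks moved far for some genes: within complex V Atp5l, a membrane subunit, went from rank 10 to rank 1, and within complex I Ndufb7 went from 31 to 15 and Ndufb5 from 26 to 12.

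Together the 83 genes took 3.68% and 3.93% of all counts in shControl and 4.11% and 3.81% in the triple knockdown. The groups overlapped. The summed CPM of the 83 genes was 39470 ± 5534 in control and 38406 ± 1109 in knockdown (SD, n = 2 each), or 97.3% of control. CPM is scaled for library composition and these shares of counts are not, so the direction of the difference depends on the scaling. By complex the knockdown sum was 98.7% of control for complex I, 103% for complex II, 94.5% for complex III, 96.0% for complex IV and 97.9% for complex V.

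The comparison of triple knockdown with shControl asks how gene expression differs with all 3 factors targeted. Over the tested subunits of all 5 complexes, transcript levels lay close to control. None was called higher, where 0.541% of all tested genes were, and 1 of 80, Cox6b2, was called lower, where 0.826% were; 1.37% of all genes were called in either direction. The other 79 did not pass the threshold of an adjusted p of 0.05 in edgeR's quasi-likelihood test over all 14050 genes. At an unadjusted p under 0.05 there were 4 of 80, against 12.0% of all genes: Ndufs7 above control and Ndufv1, Cox6b2 and Atp5s below it. DESeq2 called none of the 80 after adjustment, where it called 69 of all 14050 genes.

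Log2 fold changes of the 80 ranged from -0.51 to 0.55 with a median of 0.01, beside -0.01 over all tested genes. The middle 50% of members lay between -0.10 and 0.09, and that of all genes between -0.21 and 0.19. The median was 0.00 for complex I, 0.03 for complex II, -0.04 for complex III, 0.00 for complex IV and 0.05 for complex V. With each library left out in turn these medians ran from -0.090 to 0.11 for complex I, 0.0057 to 0.10 for complex II, -0.12 to 0.11 for complex III, -0.15 to 0.16 for complex IV and -0.021 to 0.11 for complex V, with the highest value for complexes I, III, IV and V when shControl replicate 2 was left out. Their signs are thus not settled by these libraries. The median of complex II stayed above 0, but its value of 0.03 is smaller than its SD between replicates of 0.079. Its sign is not settled either. For 73 of the 80 the 95% interval lay wholly within a 1.5-fold change either way, which held for 39.1% of all tested genes. These intervals rest on the spread between these libraries alone. The members' standard errors were smaller, with a median of 0.14 on the log2 scale against 0.22 for all genes. Their levels were higher, with a median of 334 CPM against 6.19 CPM for all tested genes, and the part of level in this was not tested. The libraries of the groups did not overlap for 14 members that were higher and 7 that were lower in the knockdown, where 19.6% and 21.7% of all genes were so. Most of the 80 thus had overlapping groups. Sequence shared with other genes is mostly a concern for short subunits with processed pseudogenes. It was over 20% of the 31-base words for 11 members, among them Cox7c (24.5%), Atp5h (25.4%), Uqcrb (34.8%) and Atp5o (49.6%, the highest). Of the exonic bases of Atp5o 47.9% overlap exons of another gene. The median log2 fold change was 0.01 for the 11 members and for the other 69.

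**Figure D2:**
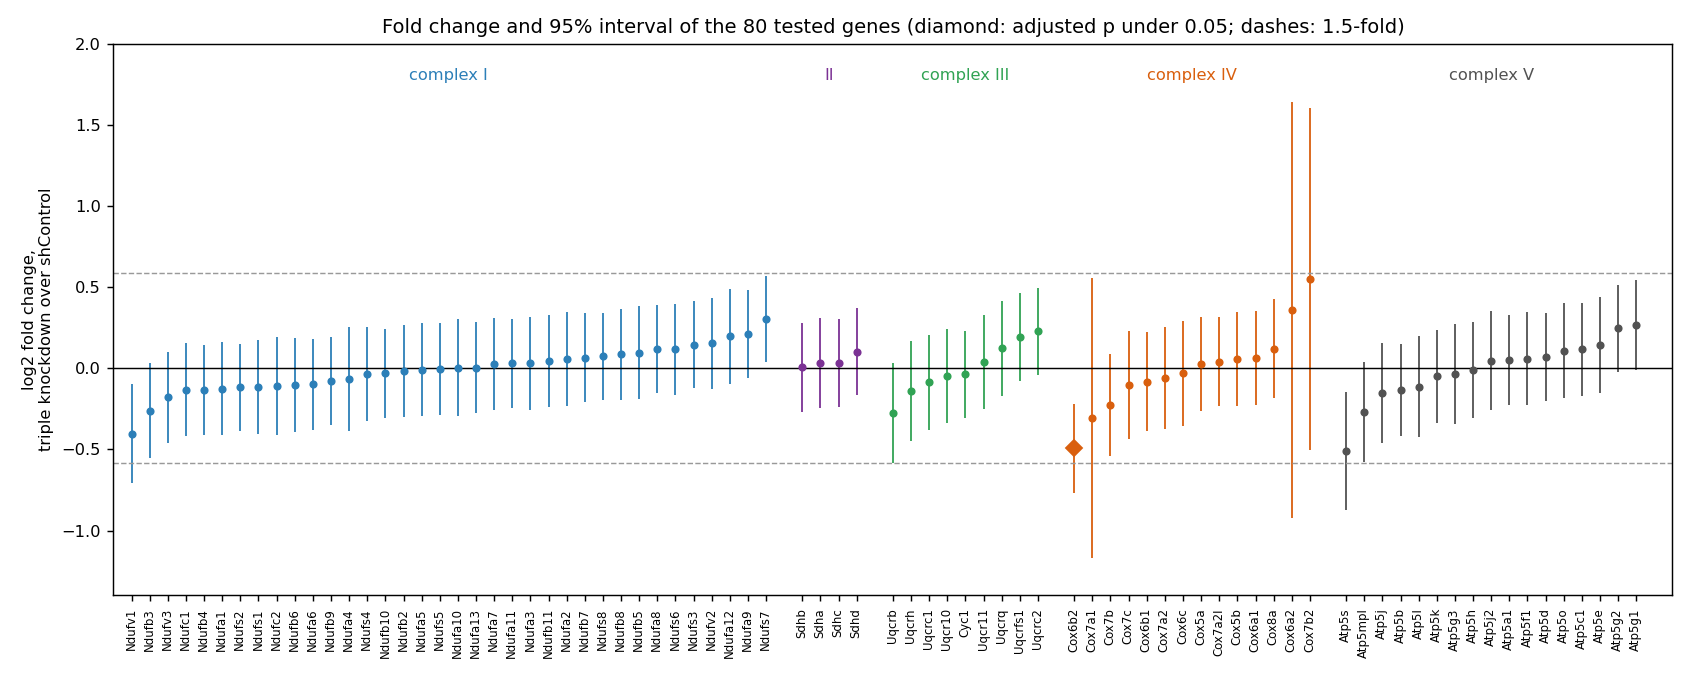
Log2 fold change of the 80 tested genes, triple knockdown over shControl, ordered within each complex, with 95% intervals from edgeR as bars; dashed lines mark 1.5-fold. Cox6b2, the diamond, is the gene with an adjusted p below 0.05, and 73 of the 80 intervals lie between the dashed lines.

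Complex I oxidizes NADH and has a core of conserved redox subunits surrounded by supernumerary ones that stabilize it. None of its 36 tested members passed the threshold, and as many lay above control as below it, 18 each. Its most abundant members by length were Ndufa4, Ndufc2 and Ndufa1, with log2 fold changes of -0.06, -0.11 and -0.13 and standard errors of 0.16, 0.15 and 0.14.

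The most negative value in complex I belonged to Ndufv1, the NADH-binding core subunit (ENSMUSG00000037916.13, chromosome 19, 4007384 to 4012806 in GRCm38). It measured 34.1 and 28.1 CPM in shControl and 22.8 and 24.5 CPM in the triple knockdown. The knockdown values were both lower than either control value, with a log2 fold change of -0.40 ± 0.15 (SE) and an adjusted p of 0.20 in edgeR. Without shControl replicate 2 the value was -0.52 and passed, at an adjusted p of 0.025.

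The most positive value was that of Ndufs7, another core subunit, which carries the last iron-sulfur cluster before ubiquinone (ENSMUSG00000020153.14, chromosome 10, 80249121 to 80256794). It measured 69.7 and 63.3 CPM in control and 87.7 and 76.5 CPM in knockdown, with no overlap. Its log2 fold change was 0.30 ± 0.13 (SE), with an adjusted p of 0.32 in edgeR. These core subunits of the same complex thus lay on opposite sides of control, neither past the threshold.

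Ndufb3, a supernumerary subunit of the membrane arm, measured 426.6 and 570.9 CPM in control and 415 and 416 CPM in knockdown, with a log2 fold change of -0.26. Ndufa9, which sits beside the ubiquinone channel, measured 150.1 and 127.5 CPM in control and 162.9 and 158.7 CPM in knockdown, with a log2 fold change of 0.21. The groups did not overlap for either gene, and adjusted p in edgeR was 0.49 and 0.57. Ndufa4l2, the paralog of Ndufa4 known as a target of hypoxia signalling, had 4 and 3 counts in control and 0 and 4 in knockdown, so no difference could be seen at this depth, where 3 counts correspond to 0.14 to 0.23 CPM.

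Complex II, succinate dehydrogenase, joins the citric acid cycle to the chain and has no subunit from mitochondrial DNA. All 4 members lay within a narrow range. Sdha, the flavoprotein that oxidizes succinate, measured 47.2 and 44.1 CPM in control and 47.0 and 46.6 CPM in knockdown, and Sdhb, its iron-sulfur partner, 195 and 168 CPM against 191 and 174 CPM. The membrane anchors Sdhc and Sdhd measured 162 and 163 CPM and 155 and 134 CPM in control, and 165 and 168 CPM and 152 and 159 CPM in knockdown. Log2 fold changes were 0.03 for Sdha, 0.01 for Sdhb, 0.03 for Sdhc and 0.10 for Sdhd, each with a standard error of 0.14. The groups overlapped for all but Sdhc, whose libraries differed least.

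Complex III, the cytochrome bc1 complex, passes electrons from ubiquinol to cytochrome c. Of its 9 members none passed, 4 lay above control and 5 below. Uqcrb, the ubiquinone-binding small subunit and the most abundant by length, measured 975 and 1336 CPM in control and 912 and 998 CPM in knockdown. The groups overlapped, because shControl replicate 1 lay between the knockdown libraries, and the log2 fold change was -0.28 ± 0.16 (SE). The other 4 small subunits had values on either side of control: -0.14 for Uqcrh, -0.05 for Uqcr10, 0.04 for Uqcr11 and 0.12 for Uqcrq.

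The Rieske iron-sulfur protein Uqcrfs1 measured 154 and 148 CPM in control and 172 and 174 CPM in knockdown. Uqcrc2, a core protein, measured 134 and 121 CPM against 155 and 145 CPM. Neither gene's groups overlapped, and the log2 fold changes of 0.19 and 0.23, each with a standard error of 0.14, had adjusted p of 0.62 and 0.52 in edgeR. These were the most positive values in complex III. Of the exonic bases of Uqcrc2 19.7% overlap another gene, Pdzd9, and reads there could belong to either.

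Complex IV, cytochrome c oxidase, reduces oxygen, and several of its nuclear subunits exist as a widely made form and a form found mainly in muscle, testis or other tissues. The 9 widely made forms had log2 fold changes between -0.23 (Cox7b) and 0.12 (Cox8a), and the groups overlapped for all 9. Cox7c, the most abundant member by length, measured 2651 and 3646 CPM in control and 2951 and 2911 CPM in knockdown. Its log2 fold change was -0.10 ± 0.17 (SE). Values were -0.08 for Cox6b1, -0.06 for Cox7a2 and 0.06 for Cox6a1, each with a standard error of 0.14 to 0.16. Cox7a2l, which joins complexes III and IV into supercomplexes, measured 236 and 231 CPM in control and 241 and 241 CPM in knockdown, a log2 fold change of 0.04 ± 0.14 (SE).

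Cox6b2, the paralog of Cox6b1 known from testis, was the member called lower (ENSMUSG00000051811.14, chromosome 7, 4751792 to 4753094 in GRCm38, minus strand). It measured 66.9 and 85.3 CPM in shControl and 56.4 and 51.6 CPM in the triple knockdown, from 792 to 1441 counts per library. All knockdown values lay below all control values. The knockdown level fitted by edgeR was 71.1% of control (95% interval 58.8% to 86.0%), a log2 fold change of -0.49 ± 0.14 (SE), with an adjusted p of 0.046 in edgeR. The call is close to the threshold. Log2 fold changes in the 14 alternative analyses ran from -0.66 to -0.30. All of them reuse these 4 libraries, whose groups did not overlap, so the kept sign is not separate evidence. With all libraries Cox6b2 passed in edgeR without genes of mitochondrial DNA (adjusted p 0.048), and under the other filters on low counts (0.044 and 0.047). Cox6b2 did not pass with RLE factors (0.054) or library size alone (0.49) in edgeR, in limma-voom (0.053) or in DESeq2 (0.22). None of its 31-base words occur in another gene's transcripts, and no other gene overlaps its exons.

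Neuronal marker genes also lay mostly below control. Of 7 such markers 2 fell in edgeR's test, Neurod6, from 34.3 ± 7.02 to 15.9 ± 2.16 CPM (adjusted p 7.9e-07), and Tubb3, from 103 ± 20.9 to 62.9 ± 1.92 CPM (adjusted p 4.4e-04; SD, n = 2 each). The 7 summed to 695 and 635 CPM in control and 525 and 530 CPM in knockdown, 6 of 7 lay below control, their median log2 fold change was -0.28, and none was at 0. Their part in the Cox6b2 result was not tested, and in RNA from whole spheres fewer cells of a type and less RNA per cell cannot be told apart.

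The ratio of Cox6b1 to Cox6b2 per kilobase was 22.9 and 22.0 in control and 29.5 and 30.3 in knockdown, so Cox6b2 made up 4.18% and 4.34% of the pair in control and 3.28% and 3.20% in knockdown. Neither ratio nor share overlapped between the groups, which follows in part from the call on Cox6b2. By longest coding transcript the ratio was lower, from 13.3 to 18.3 over the 4 libraries, so its size depends on the length used. The other tissue-restricted forms were rare. Cox7a1, the heart and muscle form, was at 1.11 to 1.88 CPM, and Cox7a2 exceeded it 465-fold to 640-fold per kilobase over the 4 libraries. Cox6a1 exceeded Cox6a2 741-fold to 1212-fold and Cox7b exceeded Cox7b2 401-fold to 908-fold.

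The tests on these rare forms were imprecise, with log2 fold changes of -0.31 for Cox7a1, 0.36 for Cox6a2 and 0.55 for Cox7b2 and standard errors of 0.43, 0.64 and 0.53. Cox8b, the muscle form of Cox8, had 0 and 2 counts in control and 2 and 0 in knockdown. Cox8c had 0 counts in all 4 libraries, which allows up to 0.14 to 0.23 CPM per library by counting error alone. Of 7 striated muscle markers 1 was abundant enough to be tested, and the list summed to 1.59 to 2.48 CPM. The widely made forms thus dominated every paralog group, which the plot of paralogs shows.

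**Figure D3:**
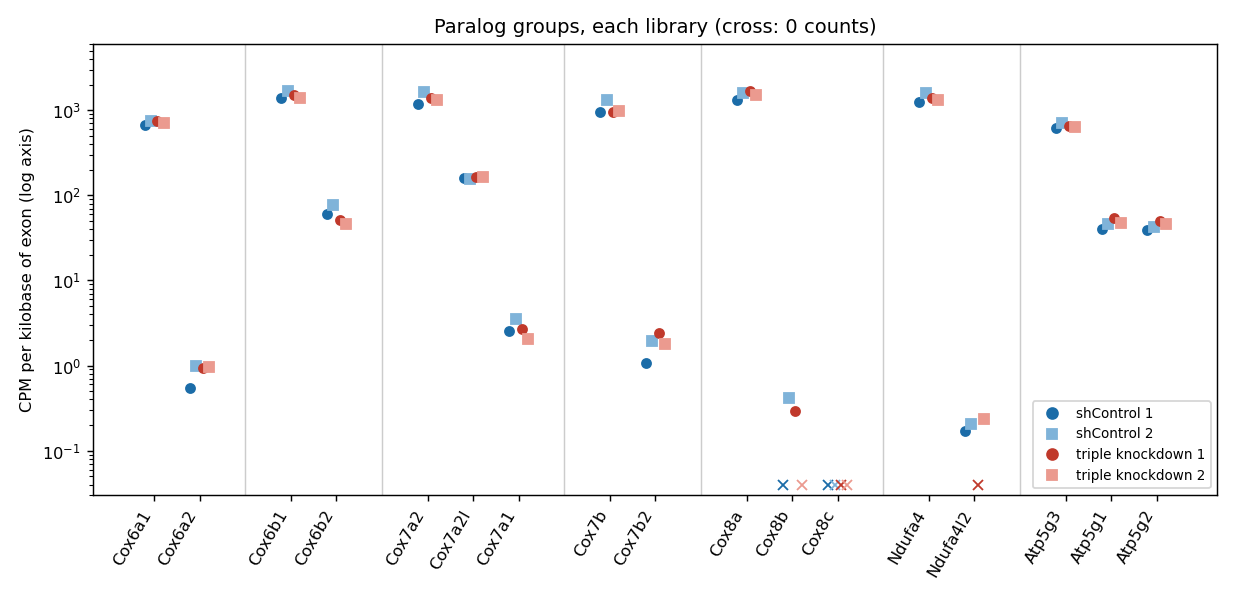
Level in CPM per kilobase of exon (log axis) of the members of 7 paralog groups, 1 point per library (blue shControl, red triple knockdown; circle replicate 1, square replicate 2), with crosses at the bottom for 0 counts. In every group 1 form lies far above the others, and the Cox6b2 points of the triple knockdown lie below those of shControl.

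Complex V, ATP synthase, has a catalytic F1 head, a rotor ring of c subunits, a peripheral stalk and small membrane proteins that shape the dimer. None of its 17 members passed, 9 lay above control and 8 below. The 5 members of the head had log2 fold changes from -0.13 to 0.15 and summed to 1886 and 1882 CPM in control and 2018 and 1934 CPM in knockdown. Atp5h, of the peripheral stalk, had -0.01 ± 0.15 (SE). Atp5mpl, a small membrane protein and the most abundant by length, measured 985 and 1339 CPM in control and 980 and 947 CPM in knockdown, with a log2 fold change of -0.27 ± 0.16 (SE) and groups that did not overlap.

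The c ring is built from a single mature protein encoded by 3 genes, Atp5g1, Atp5g2 and Atp5g3, which differ in the targeting peptide that is cut off on import. Atp5g3 measured 1343 and 1533 CPM in control and 1433 and 1377 CPM in knockdown, with overlapping groups and a log2 fold change of -0.03. Atp5g1 measured 196 and 224 CPM against 269 and 235 CPM, and Atp5g2 64.8 and 71.0 CPM against 84.7 and 76.1 CPM. For these minor genes both knockdown libraries lay above both control libraries. Their log2 fold changes of 0.27 and 0.25, each with a standard error of 0.13 to 0.14, did not pass, at adjusted p of 0.45 and 0.47 in edgeR. Per kilobase Atp5g3 made up 88.7% and 88.9% of the trio in control and 86.2% and 87.1% in knockdown, a difference with no test. By longest coding transcript the ratio of Atp5g3 to Atp5g1 was 34.8 to 44.8 in place of 12.0 to 15.5, so these shares depend on the length used. Of the 31-base words of Atp5g2 transcripts 40.2% occur in other genes, so its counts are less certain.

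Atp5s, which encodes factor B (now named Dmac2l), had the most negative log2 fold change of all 80 (ENSMUSG00000054894.6, chromosome 12, 69724950 to 69744660). It measured 12.96 and 14.95 CPM in control and 10.1 and 9.38 CPM in knockdown, with no overlap. The log2 fold change was -0.51 ± 0.18 (SE) with an adjusted p of 0.17 in edgeR. With Ndufv1 and Ndufs7 it is among the members that differed at an unadjusted p under 0.05 without passing.

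For these genes the shControl libraries were further apart, by median, than the groups were. The log2 ratio of shControl replicate 2 to replicate 1 had a median of 0.22 over the 80 members, with 59 of 80 higher in replicate 2, beside -0.01 over all tested genes. Between the triple knockdown libraries the median was -0.09, with 18 of 80 higher in replicate 2. The difference between the control libraries went with the role of the protein. The 18 core and catalytic members (the redox core of complexes I and III, the core proteins of complex III, Sdha and Sdhb, and the F1 head) had a median of -0.12, with 3 of 18 higher in replicate 2, and the other 62 a median of 0.28, with 56 of 62 higher. It also went with exon length: across the 80 genes, which share the same 4 libraries, the Spearman correlation with length was -0.47 for the control ratio, 0.11 for the knockdown ratio and 0.05 for the log2 fold change between groups. By ranks it went with level as well: the Spearman correlation of the control ratio with mean CPM was 0.51 across the same 80 genes. The Pearson correlation with log2 mean CPM was 0.08, so this link depends on the measure. The parts of length, level and role were not told apart by any test. Over the 13985 tested genes with an exon length and a control ratio, the Spearman correlation was 0.18 with length and -0.14 with mean CPM. Both are opposite in sign to those of the members.

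**Figure D4:**
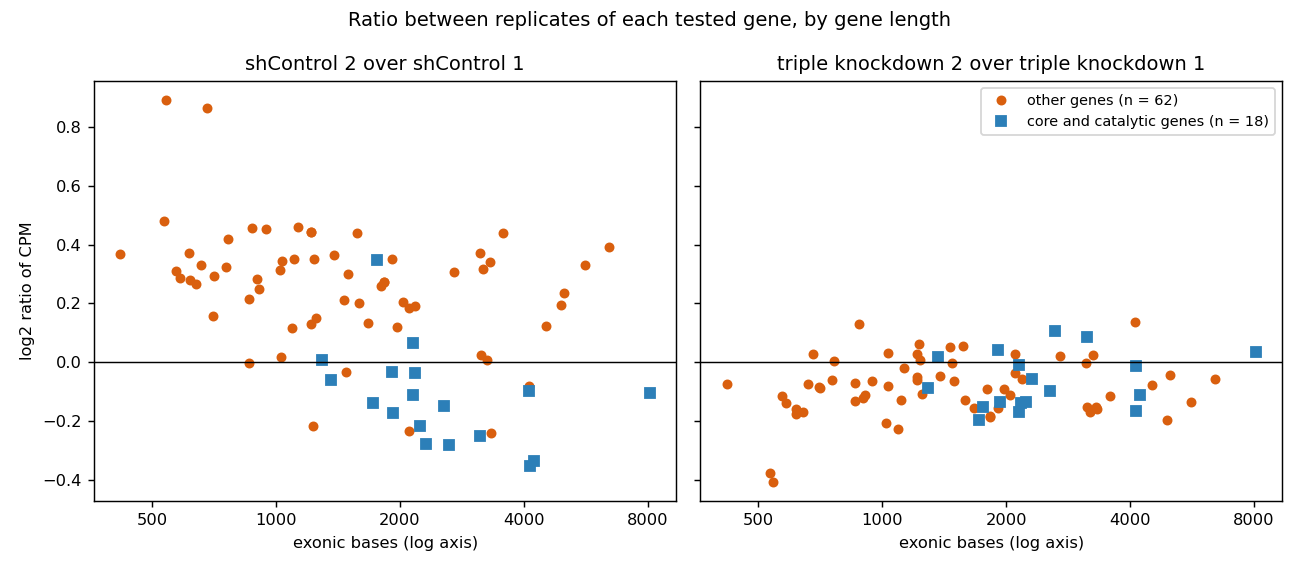
Log2 ratio of CPM between replicates of each tested gene against its exonic bases (log axis), for shControl on the left and triple knockdown on the right; squares are the 18 core and catalytic genes and circles the other 62. In shControl 56 of the 62 circles and 3 of the 18 squares lie above 0.

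This spread set how the members stood when a control library was left out. Without shControl replicate 1 the median log2 fold change of the members was -0.07 and 5 passed as lower (Atp5mpl, Cox6b2, Cox7b, Ndufb3 and Uqcrb), where 1.27% of all genes did. None passed as higher, where 0.772% of all genes did. Core and catalytic members then had a median of 0.11 and the others -0.11. Without shControl replicate 2 the members' median was 0.11, 1 passed as higher (Ndufa12, a supernumerary subunit of complex I), where 1.87% of all genes did, and 1 as lower (Ndufv1), where 2.23% did. Core and catalytic members then had a median of -0.0018 and the others 0.11. In each of these fits the lone control library was assumed to vary like the knockdown pair.

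The libraries of a pair of those genes show which sample stood apart. Ndufa12 measured 338 and 458 CPM in control and 447 and 464 CPM in knockdown, so that shControl replicate 1 stood apart. Cox7b measured 1170 and 1590 CPM in control and 1168 and 1191 CPM in knockdown, so that shControl replicate 2 stood apart. With both control libraries the log2 fold changes were 0.20 and -0.23, and neither passed.

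Other genes of the pathway were taken from lists by function. The 5 subunits that the name rule left out all failed to pass: Cox4i1, the main form of another complex IV subunit, measured 878 ± 23.1 CPM in control and 915 ± 27.0 CPM in knockdown (log2 fold change 0.06), and Cox4i2, its lung and hypoxia form, 0.87 ± 0.25 and 0.86 ± 0.21 CPM (0.03). Ndufab1, the acyl carrier protein of complex I, had a log2 fold change of 0.11, Cycs, cytochrome c, 0.07, and Atpif1, an inhibitor of ATP synthase, -0.16.

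Assembly factors, which build the complexes without remaining in them, gave no call in any of 5 lists with 56 tested genes. Medians were 0.01 for 16 factors of complex I, -0.08 for 4 of complex II, 0.00 for 6 of complex III, 0.05 for 25 of complex IV and 0.05 for 5 of complex V. The most abundant were Dmac1 (-0.07) and Ndufaf2 (-0.11) for complex I, Sdhaf4 (-0.14) and Sdhaf3 (-0.13) for complex II, Uqcc2 (0.01) and Uqcc3 (-0.06) for complex III, Higd1a (-0.04) and Cox14 (0.00) for complex IV, and Fmc1 (-0.05) and Tmem242 (0.05) for complex V, all as log2 fold changes.

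The 13 subunits encoded by mitochondrial DNA, partners of the nuclear members in complexes I, III, IV and V, took 30.3% and 33.9% of counts in control and 26.6% and 28.5% in knockdown. All 13 had log2 fold changes below 0, with a median of -0.31, and for 11 the groups did not overlap, where 21.7% of all tested genes were lower without overlap. In edgeR 1 of 13 fell, where 0.826% of all tested genes did: mt-Nd3, from 2873 ± 856 to 1774 ± 36.3 CPM (SD, n = 2 each; log2 fold change -0.70, adjusted p 0.012), and 98.1% of its 31-base words occur in another gene, so its counts are uncertain. The nuclear members of the same complexes had medians between -0.04 and 0.05. These values are side by side, and the difference between nuclear and mitochondrial transcripts was not tested.

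Of 78 mitochondrial ribosomal proteins, which translate those 13 transcripts, none passed, their median was 0.11 and 67 lay above control. Their groups did not overlap for 38 (48.7%) that were higher and 3 (3.85%) that were lower, where 19.6% and 21.7% of all tested genes were so. The most abundant, Mrps33 and Mrps18c, had log2 fold changes of -0.18 and -0.04. None of 14 citric acid cycle enzymes passed, with a median of 0.07 and 11 above control; Mdh2 and Suclg1, the most abundant, had 0.18 and 0.12. None of 15 genes of ubiquinone synthesis, nucleotide or phosphate carriers and electron transfer flavoproteins (Etfa, Etfb and Etfdh) passed, with a median of 0.12. Slc25a5 (0.38) and Slc25a4 (-0.03) led in level. None of 16 regulators of mitochondrial biogenesis passed, at a lowest adjusted p of 0.069 in edgeR. Their median was 0.06 and their log2 fold changes ran from -0.78 to 0.56. Among these regulators Ssbp1, which binds single-stranded mitochondrial DNA, had 0.02, and Tfam, which packages that DNA, -0.44 (adjusted p 0.13 in edgeR). The plot of lists sets these beside the members.

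**Figure D5:**
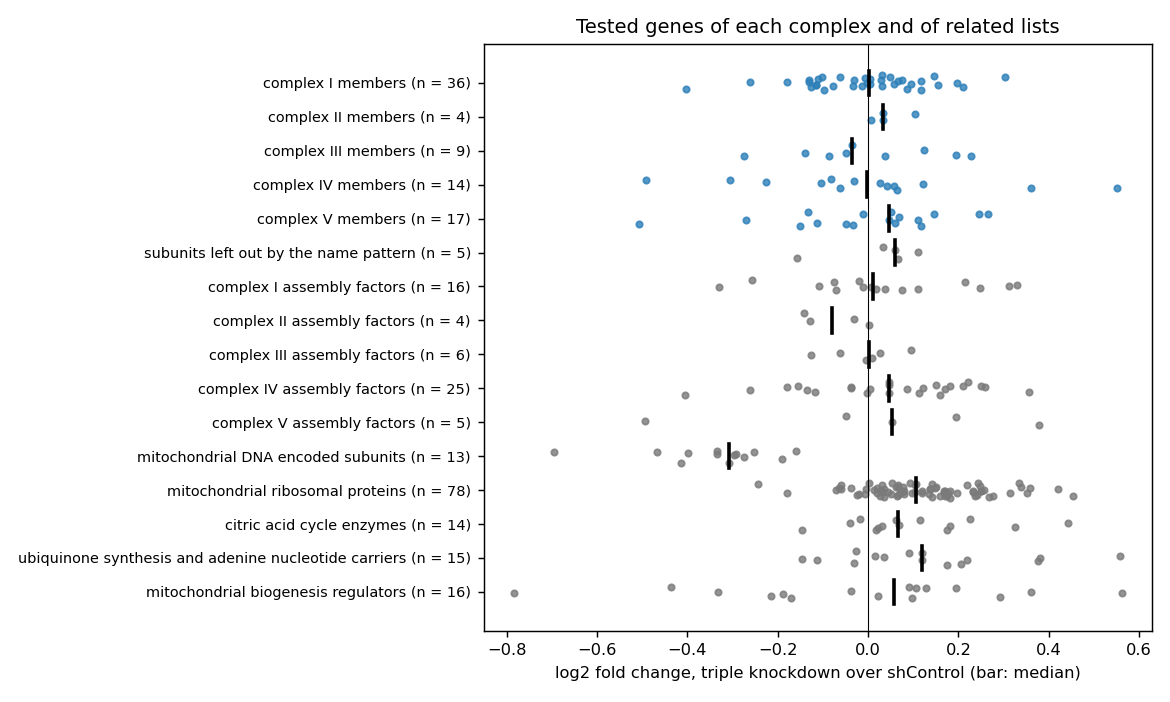
Log2 fold change of each tested gene, triple knockdown over shControl, for the members by complex (blue) and for related lists (grey), with the median as a black bar and points spread vertically for legibility. Members of the 5 complexes centre near 0, and all 13 mitochondrial DNA encoded subunits lie below 0.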

How the data were processed

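Estimated counts per Ensembl gene were deposited by the authors in 1 table, made with Salmon on GRCm38 or mm10 per the submitters' processing notes; the sources used here give neither version nor annotation. Of 34866 identifiers 34582 matched GENCODE M21 without their version. The deposited estimated counts were rounded and tested for all genes with edgeR 4.0.16 in R 4.3.3: TMM scaling, filterByExpr with a minimum count of 10, robust quasi-likelihood F tests, two-sided, and Benjamini-Hochberg adjustment at 0.05. Intervals are 95% from the standard error. An exact permutation test of 2 against 2 cannot go below p = 0.33 and was not used. Nothing in the labels says that replicates were separate cultures, so p-values rest only on the spread between these libraries. For each gene edgeR draws that spread toward a trend over all tested genes, so p-values and standard errors of single genes partly reflect that trend. The script was tested on simulated data. Levels per kilobase divide CPM by all exonic bases of a gene. Alternatives were RLE factors, library size alone, other filters, DESeq2 1.42.0, limma-voom 3.58.1, a fit without robust estimation, the replicate block, and leaving out mitochondrial genes, genes that share sequence, and each library. Members and lists were chosen with earlier results of these data known. Named members are, in each complex, the 3 highest per length, the 2 most positive and 2 most negative fold changes, calls, paralogs and untested genes; others were named after their values were seen.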

Additional observations from a re-analysis of the deposited data

How the results depend on the processing

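No member was called higher under any of the 14 alternatives but 1 (0 to 1 with a library left out). The count of members called lower, 1 in the analysis reported, was 0 with RLE factors, library size alone, DESeq2, limma-voom, no robust estimation, the replicate block and without genes that share over 50% of their 31-base words, and 0 to 5 with a library left out. Replicate numbers did not pair the libraries (correlation of deviations -0.032), and the replicate block gave 172 called genes in place of 192. Over all genes, calls were 30 higher and 39 lower in DESeq2, and 28 lower with library size alone, which raises the median of all genes by 0.08; leaving out a library gave 27 to 280 higher and 17 to 334 lower. The median of complex II was 0.12 with library size alone. Levels by longest coding transcript had medians of 313, 86.9, 367, 730 and 824 for complexes I to V.

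Signs of values near 0 changed. With library size alone log2 fold changes were 0.035 for Ndufa4, 0.047 for Uqcr10, 0.013 for Cox6b1, 0.039 for Cox7a2, 0.059 for Atp5g3 and 0.082 for Atp5h. Atp5h was at 0.0013 with RLE factors, 0.0013 with DESeq2 and 0.0032 without sequence-sharing genes, and Sdhb at -0.0027 with no filter. With a library left out the lowest and highest values were -0.24 and 0.14 for Ndufa4, -0.27 and 0.073 for Ndufc2, -0.30 and 0.080 for Ndufa1, -0.085 and 0.12 for Sdhb, -0.0019 and 0.083 for Sdha, -0.31 and 0.058 for Uqcrh, -0.19 and 0.11 for Uqcr10, -0.32 and 0.16 for Cox7c, -0.014 and 0.28 for Cox8a, -0.22 and 0.083 for Cox6b1, -0.27 and 0.19 for Cox7a2, -0.43 and 0.024 for Cox7b, -0.016 and 0.16 for Cox6a1, -0.069 and 0.80 for Cox6a2, -0.13 and 0.078 for Atp5g3, and -0.11 and 0.11 for Atp5h. None of these genes but Cox7b passed in any alternative. The cause was not tested. Depth limits the rare paralogs, whose standard errors exceeded 0.4.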
